A study of Homo sapiens with 36 samples.

Results

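Chromosome 19 carries 240 protein-coding genes whose symbol is ZNF followed by a number, and these genes, here called the chromosome 19 ZNF genes or members, were followed through actinomycin D treatment of a tumor cell line. They were taken from the 58174 genes listed in the RNA data by matching identifiers, without version number, to GENCODE release 29 (GRCh38) and keeping protein-coding genes of chromosome 19 with such a symbol, a rule that uses no measured value. The cells were WiT49, an established line from an anaplastic Wilms tumor, a kidney cancer of childhood. Actinomycin D (actD) is a drug that inserts into DNA at GC-rich sites and blocks RNA polymerases. Cultures received 2 nM actD or the vehicle dimethyl sulfoxide (DMSO) for 6 h, for 72 h, or over 2 weeks in 2 cycles of 7 days, each made of 3 days with drug or vehicle and 4 days in plain medium. Total RNA and ribosome footprints, the short RNA pieces that translating ribosomes shield from nuclease, were sequenced from 3 libraries per group, 36 in all. In the 2-week RNA data each title contradicts the library's own name on the treatment. Those libraries are grouped by name, written named actd and named dmso, and differences are the former minus the latter. Nothing in the labels says that the 3 libraries of a group came from separate cultures, so p-values measure the spread between these libraries, which may be technical. WiT49 is a single line, so nothing here speaks to variation between tumors.

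Most chromosome 19 ZNF genes encode DNA-binding proteins with a row of C2H2 zinc fingers, each a short loop held by a zinc ion between a pair of cysteines and a pair of histidines. Many carry a KRAB box ahead of the fingers, a domain that recruits the corepressor TRIM28 (KAP1), which in turn brings histone methyltransferases such as SETDB1 and heterochromatin proteins to the bound DNA. The family is best known for silencing transposable elements, and it grew by tandem duplication, which left its genes side by side in long stretches of chromosome 19 and similar in sequence.

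The members share features that the rule did not use. A KRAB pattern was found in the protein of 202 of the 240 members and not in the other 38. The number of C2H2 fingers ranged from 0 to 36 with a median of 12, and the median protein length was 586.5 residues. With a gap of more than 1000000 bases taken as a break, the members fell into 16 stretches, 7 of which held at least 10 members. The stretch with the most members lay at chr19:55476332-58481230 with 57 members, followed by chr19:51571298-53580269 with 39 and chr19:19668796-24129961 with 37. A same-strand gene overlapped 99 members and an opposite-strand gene 127. At least 1 word of 75 bases was shared with the transcripts of another gene in all but 95 members, and 35 members shared over 10% of their words, so reads of those members can be assigned to more than 1 gene.

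The repeated unit that gives the family its name is shown for 5 of the members described below, as 1 finger and the linker that joins it to the next. The sequences are the coding strand of GENCODE transcripts on GRCh38, 5′ to 3′, 84 bases each. Capitals mark the codons of the zinc-binding cysteines and histidines and those of the linker (threonine, glycine, glutamate, lysine, proline).
ZNF331, chr19:53576957-53577040, plus strand: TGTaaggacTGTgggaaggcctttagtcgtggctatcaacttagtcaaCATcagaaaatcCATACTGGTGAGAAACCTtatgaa
ZNF471, chr19:56524689-56524772, plus strand: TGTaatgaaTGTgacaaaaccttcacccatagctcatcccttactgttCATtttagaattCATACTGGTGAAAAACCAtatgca
ZNF577, chr19:51873345-51873428, minus strand: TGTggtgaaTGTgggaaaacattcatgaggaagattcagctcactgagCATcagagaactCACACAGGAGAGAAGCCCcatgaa
ZNF146, chr19:36236660-36236743, plus strand: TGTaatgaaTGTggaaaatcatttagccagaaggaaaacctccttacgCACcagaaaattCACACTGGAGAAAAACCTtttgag
ZNF57, chr19:2917381-2917464, plus strand: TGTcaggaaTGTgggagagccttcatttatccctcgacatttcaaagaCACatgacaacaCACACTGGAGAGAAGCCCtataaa
The 240 proteins held 2987 fingers, of which 1347 (45.1%) were followed directly by this linker. One spelling of its codons, ACTGGAGAGAANCC, with N for any base, searched on both strands of the longest transcript, was present in 152 members (63.3%). The same letters were in 33.2% of the ZNF genes of other chromosomes, in 1.3% of the other protein-coding genes of chromosome 19 and in 1.42% of all protein-coding genes.

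Promoters of 209 members were matched by symbol to RefSeq (GRCh38.p14). Where a symbol had several entries, that with the lowest start coordinate was used, on either strand. In the 250 bases before the start their median GC content was 59.6%, against 62.4% over 14896 protein-coding genes, with a median of 16 CG dinucleotides against 17. Each motif was searched on both strands. The letters CCAAT were present in 50.7% of the members' windows and in 34.2% of all windows. TATAAA was present in 2.39% and 9.2%. In ZNF genes of other chromosomes the shares were 41.9% for CCAAT and 5.24% for TATAAA. The promoter of ZNF331, the member with the smallest unadjusted p at 6 h, is printed with its CG dinucleotides in capitals, of which there are 14, and that of ZNF577, the member called at 72 h when all RNA libraries were fitted together, follows with 17.
ZNF331, chr19:53520764-53521013, plus strand: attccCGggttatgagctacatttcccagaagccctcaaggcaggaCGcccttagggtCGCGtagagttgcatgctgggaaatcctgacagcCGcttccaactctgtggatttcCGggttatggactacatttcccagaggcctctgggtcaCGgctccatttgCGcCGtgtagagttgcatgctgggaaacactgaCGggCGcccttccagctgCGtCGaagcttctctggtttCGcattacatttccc
ZNF577, chr19:51887952-51888201, minus strand: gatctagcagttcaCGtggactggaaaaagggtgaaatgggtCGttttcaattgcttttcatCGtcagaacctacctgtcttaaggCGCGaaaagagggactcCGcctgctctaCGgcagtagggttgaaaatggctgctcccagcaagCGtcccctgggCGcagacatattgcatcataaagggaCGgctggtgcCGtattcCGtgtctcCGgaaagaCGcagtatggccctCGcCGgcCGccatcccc

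RNA libraries held 40221994 to 69240041 counts and footprint libraries 152556 to 1281039. Markers of Wilms tumor and nephron progenitors were only partly present: WT1, NCAM1 and OSR1 were detected, while CITED1, PAX8, EYA1, SIX2, PAX2 and SALL1 lay below 1 CPM (counts scaled to library size) in every RNA library. Among the markers of blood and endothelium, PTPRC, HBB, PECAM1 and CDH5 were at or near 0, and CD68 and VWF were low, at 0.47 to 2.10 and 0.41 to 1.24 CPM at 6 h, while the fibroblast genes COL1A1, DCN and LUM were present, COL1A1 at 346 to 818 CPM. In the 72 h libraries the 2 mitochondrial ribosomal RNAs took 24.6% to 32.3% of counts in actD and 15.5% to 22.5% in DMSO libraries, and protein-coding genes took 54.3% to 62.4% against 63.2% to 67.6%. At 2 weeks the mitochondrial share was 25.8% to 31.2% in named actd and 19.6% to 22.9% in named dmso libraries. At 6 h the corresponding ranges overlapped. The part of these shares in the differences below was not tested.

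RNA of the chromosome 19 ZNF genes was low but readily counted. Of the 240 members, 228 passed the filter on low counts at 6 h, 229 at 72 h and 225 at 2 weeks, and 7, 5 and 8 were listed at 0 in every library of those tables. A member that passed had a median level of 1.98 CPM per kb of exon in the 6 h DMSO libraries, against 3.63 for ZNF genes of other chromosomes and 3.72 for all protein-coding genes tested. The corresponding medians were 1.84 and 3.19 for members and protein-coding genes at 72 h, and 1.84 and 3.32 in the named dmso libraries. Together the members took 0.267% to 0.431% of all RNA counts. The most abundant per kb at 6 h in DMSO were ZNF460 with 24.5 CPM per kb (SD 1.56), ZNF146 with 18.6 (SD 21.2), ZNF724 with 16.7 (SD 4.24) and ZNF121 with 15.9 (SD 1.98, n = 3 each). The SD of ZNF146 exceeds its mean, so its place is not settled, and the order of ZNF724 and ZNF121 does not hold beyond their spread.

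After 6 h of actD, chromosome 19 ZNF RNA was slightly higher as a group, with no single member called by edgeR and 3 by DESeq2. The summed level of the 228 members was 3213, 3390 and 3649 CPM in the 3 DMSO libraries and 4088, 3870 and 3962 CPM in the 3 actD libraries. All actD libraries lay above all DMSO libraries, with means of 3417 (SD 219) and 3973 (SD 110). A log2 fold change above 0 was found for 163 of 228 members (71.5%), against 53% of all genes tested and 63.6% of ZNF genes of other chromosomes. The median log2 fold change was 0.13 for the members and 0.02 for all genes, 0.10 for 220 ZNF genes of other chromosomes and -0.02 for 885 other protein-coding genes of chromosome 19.

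No member passed an adjusted p of 0.05 at 6 h in edgeR's quasi-likelihood test, and none of the 22669 genes tested did (0%). At an unadjusted p under 0.05, 20 members were higher and 4 lower. Over all genes the shares were 3.67% higher and 4.54% lower. Of 220 ZNF genes of other chromosomes, 27 were higher and 10 lower. The actD and DMSO libraries did not overlap for 36 members that were higher (15.8%) and 5 that were lower (2.19%), where 7.66% and 8.17% of all genes did so. Among ZNF genes of other chromosomes these shares were 17.3% and 7.27%, so the share on the higher side was not particular to chromosome 19. DESeq2, which called 0.869% of genes, called 3 members, ZNF331 and ZNF566 as higher and ZNF497 as lower. ZNF497, listed at 0 in every actD library, passed the filter only through the DMSO libraries, so its call rests on a gene selected by that difference. The fit over all 18 RNA libraries called no member and 0.00403% of genes.

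**Figure D1:**
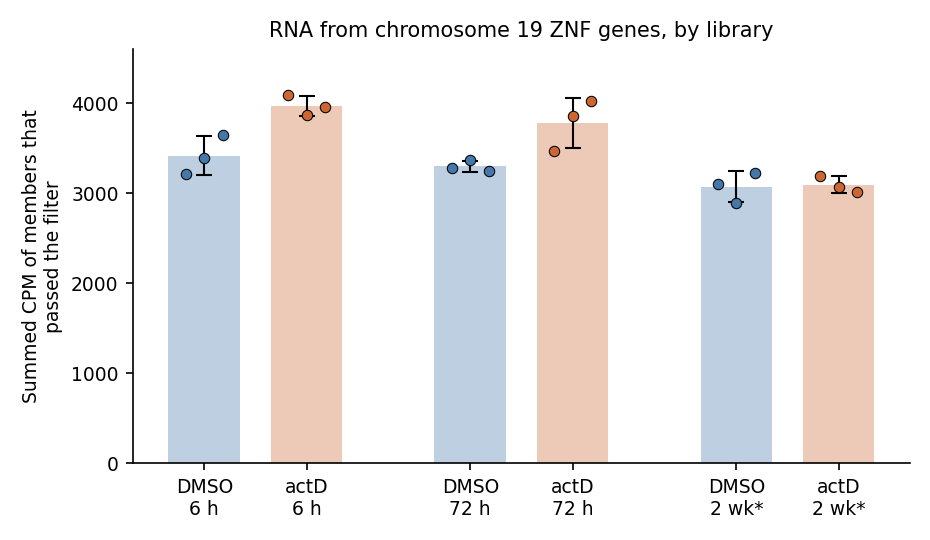
Summed RNA level of the chromosome 19 ZNF genes that passed the filter, in CPM (y axis), for each of the 18 RNA libraries (points), with the mean (bar) and SD (error bar) of each group of 3; the asterisk marks groups by library name. At 6 h and 72 h the 3 actD libraries lie above the 3 DMSO libraries, and at 2 weeks the groups overlap.

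After 72 h the same direction was seen with a similar size. The summed level of the 229 tested members was 3284, 3365 and 3244 CPM in DMSO and 3474, 3855 and 4021 CPM in actD. Again no actD library overlapped the DMSO libraries in this sum. The median over members of the log2 deviation from each member's mean did overlap. It was 0.007, 0.068 and -0.139 in DMSO and 0.073, 0.207 and 0.027 in actD. A log2 fold change above 0 was found for 153 of 229 members (66.8%) against 51.4% of all genes, and the median was 0.13 against 0.02. ZNF genes of other chromosomes had a median of 0.07, with 60.9% above 0. Other protein-coding genes of chromosome 19 had a median of 0.09, with 57.4% above 0. No member was called by edgeR, which called 0.00472% of genes, while 11 members were higher and 1 lower at an unadjusted p under 0.05, with backgrounds of 5.27% and 7.78%. Groups did not overlap for 24 members that were higher and 5 that were lower, where 10.5% and 10.3% of all genes did so, so the first count is at the background. DESeq2 called 1 member, ZNF146 (2.87% of genes), and the fit over all 18 RNA libraries called 1 other, ZNF577 (4.89% of genes).

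At 2 weeks the groups by library name overlapped as sums. The summed level of the 225 tested members was 3100, 2896 and 3228 CPM in named dmso and 3197, 3070 and 3019 CPM in named actd libraries, which overlap. A log2 fold change above 0 was found for 117 of 225 members (52%) against 46.8% of all genes, and the median was 0.01 against -0.02. ZNF genes of other chromosomes had a median of -0.05, with 40.9% above 0. For other protein-coding genes of chromosome 19 the median was -0.01, with 48.1% above 0. No member was called by edgeR or by the fit over all 18 RNA libraries, nor was any gene (0%). At an unadjusted p under 0.05, 10 members were higher and 7 lower, with backgrounds of 4% and 4.93%. The groups were apart for 21 members higher and 11 lower (backgrounds 7.86% and 7.83%). Among ZNF genes of other chromosomes these shares were 4.55% and 10.5%. DESeq2 called 1 member, ZNF419 (0.894% of genes).

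**Figure D2:**
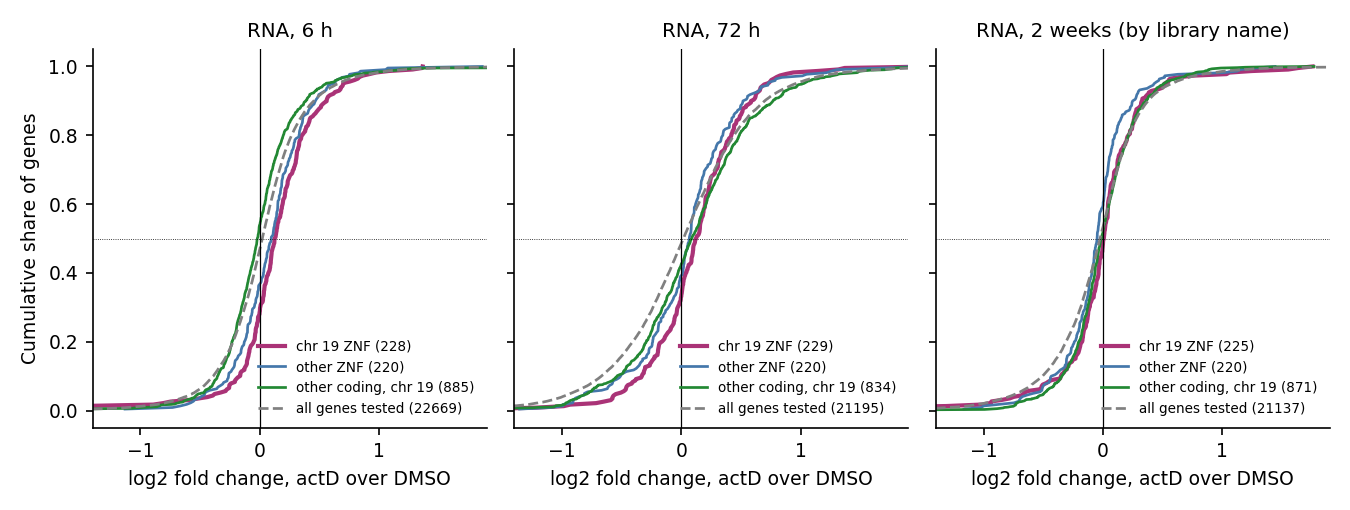
Cumulative share of genes (y axis) against the log2 fold change of actD over DMSO (x axis) in the 3 RNA tables, for the chromosome 19 ZNF genes, the ZNF genes of other chromosomes, the other protein-coding genes of chromosome 19 and all genes tested, with the number of genes in brackets. The members' curve crosses the dotted line at a cumulative share of 0.5 at 0.13 for 6 h and 72 h, to the right of all genes at 0.02, and at 0.01 for 2 weeks.

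The time points were compared directly by the treatment-by-time interaction, 72 h against 6 h, in which 230 members were tested. The effect of actD was higher at 72 h for 48.3% of them, against 47.9% of all genes, and the median difference was -0.02. No member was called by edgeR (0.0165% of genes) or by DESeq2 (0.664%), and 1 member had a higher and 7 a lower effect at 72 h at an unadjusted p under 0.05 (backgrounds 2.84% and 5.18%). Of 227 members tested at both times, 9 were higher without overlap at both, none was lower at both and none was in opposite directions. Of the 20140 genes tested at both times, 1.4% were higher at both, 2.3% lower at both and 0.601% in opposite directions. The 9 were ZNF134, ZNF211, ZNF468, ZNF471, ZNF543, ZNF569, ZNF577, ZNF611 and ZNF772. They were chosen by the values themselves, so their agreement is a description.

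Members with and without a KRAB pattern were compared within each table. At 6 h 140 of 191 tested members with the pattern had a log2 fold change above 0, with a median of 0.14, and 23 of 37 without it, with a median of 0.02. The medians were 0.13 and 0.14 at 72 h. By number of fingers the 6 h medians were 0.05 for members with at most 9, 0.16 for those with 10 to 14 and 0.16 for those with at least 15, while they were 0.17, 0.15 and 0.04 at 72 h and -0.04, 0.04 and 0.04 at 2 weeks. No test was made between these classes, since members are not replicates.

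Medians differed between the 7 large stretches, from 0.03 to 0.24 at 6 h and from 0.05 to 0.35 at 72 h. The stretch at chr19:11483427-12640098 had 22 of 24 tested members above 0 with a median log2 fold change of 0.23, and that at chr19:19668796-24129961 had 26 of 30 with a median of 0.24. The most distal stretch, chr19:55476332-58481230, had 35 of 57 with a median of 0.03. In the first 2 of these stretches few members had groups that did not overlap at 6 h. They were 3 of 24 (12.5%) and 1 of 30 (3.33%), all higher, where 7.66% of all genes were higher without overlap. The largest share was at chr19:51571298-53580269, with 11 of 37 members higher (29.7%) and 1 lower without overlap, and a median of 0.18. At 72 h the medians of chr19:11483427-12640098, chr19:19668796-24129961 and the most distal stretch were 0.12, 0.09 and 0.16. The highest median at 72 h, 0.35, belonged to chr19:36182060-37817300 with 17 of 24 members above 0. At 2 weeks the medians of the 7 large stretches lay between -0.03 and 0.09. Stretches differ in base composition and sequence sharing as well as in position, and these were not separated.

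**Figure D3:**
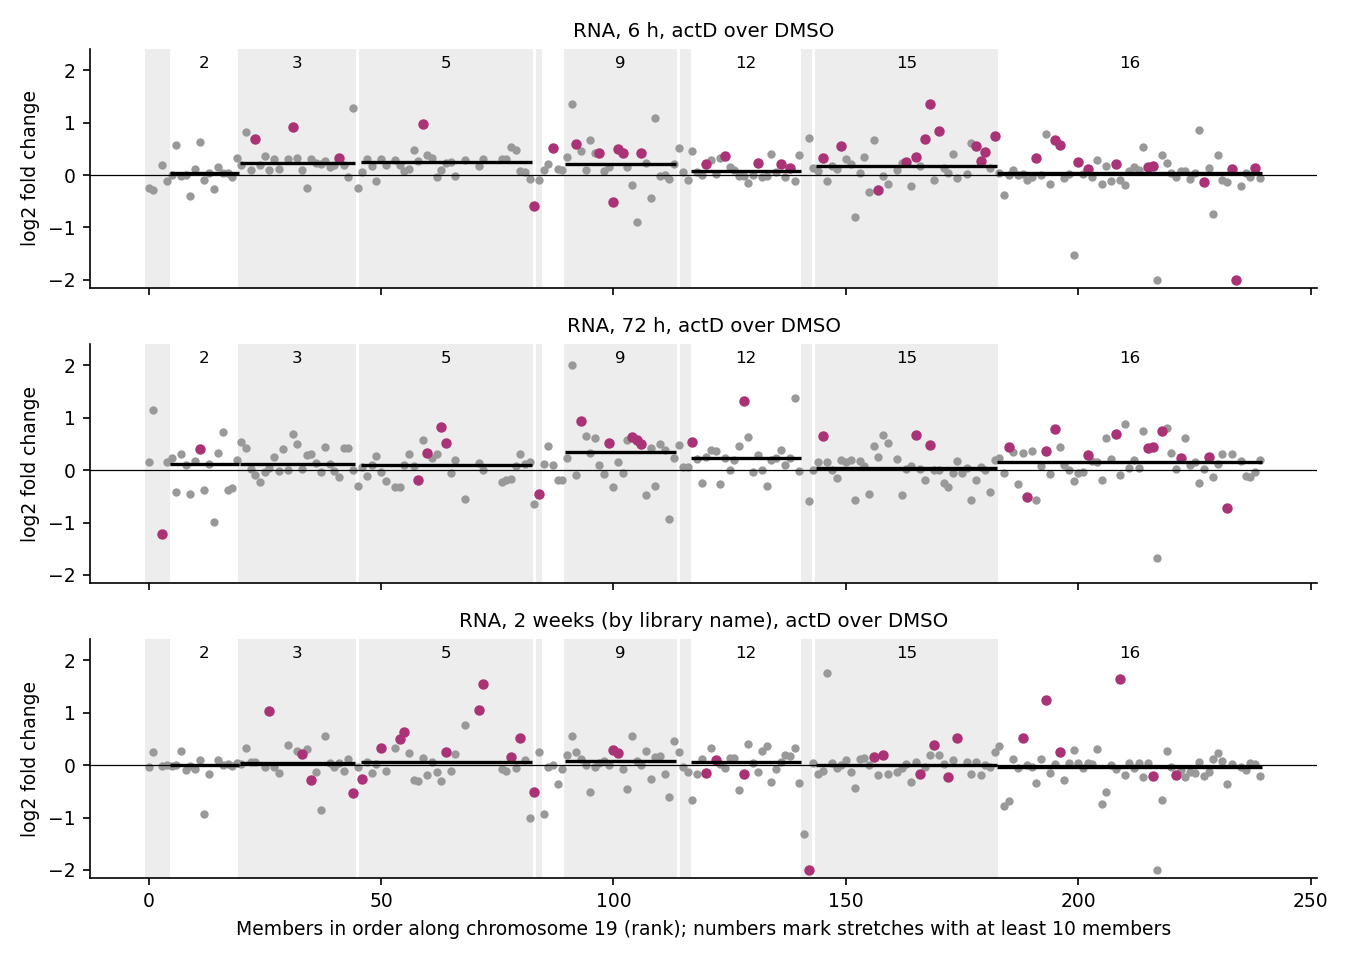
Log2 fold change of actD over DMSO (y axis) of each tested member, in order along chromosome 19 (x axis, rank), at 6 h, 72 h and 2 weeks by library name; shading separates the 16 stretches, numbers and black lines give those with at least 10 members and their median, and purple points are members whose groups did not overlap. In stretches 3 and 5 nearly all points lie above 0 at 6 h with medians of 0.23 and 0.24. Groups did not overlap for 3 of 24 and 1 of 30 of these members. At 6 h, 72 h and 2 weeks, 2, 1 and 2 members beyond 2 are drawn at that limit.

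GC content of the longest transcript had a median of 42.3% in the members and 49% in all protein-coding genes tested at 6 h. Across the 228 members the Spearman correlation of GC content with the 6 h log2 fold change was -0.28, across 220 other ZNF genes it was -0.47, and across 14921 protein-coding genes -0.25. These are correlations across genes that share the same 6 libraries. At 72 h the values were -0.10, -0.01 and 0.06, and at 2 weeks -0.22, -0.10 and -0.07. Divided at GC contents of 40.5% and 44.0%, the members' 6 h medians were 0.21 for the lowest class, with 58 of 73 above 0, 0.18 for the middle class and 0.04 for the highest, with 49 of 78 above 0. The same classes had medians of 0.16, 0.10 and 0.10 at 72 h.

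Among members with a known role, those that silence transposable elements were not separated by treatment in the first 2 tables. ZNF91, which represses SVA elements, was at 37.7, 71.9 and 72.4 CPM in DMSO and 95.1, 66.4 and 103 CPM in actD at 6 h, and at 156, 138 and 184 against 139, 136 and 152 CPM at 72 h. ZNF93, which represses LINE-1 elements, was at 5.88, 10.2 and 6.86 CPM in DMSO and 8.89, 8.43 and 11.2 CPM in actD at 6 h. Both sets of libraries overlap at these times. At 2 weeks ZNF93 was at 5.37, 5.65 and 5.91 CPM in named dmso and 7.39, 6.06 and 7.85 CPM in named actd, groups that do not overlap (log2 fold change 0.33, SE 0.16, edgeR adjusted p = 0.583). ZNF91 was likewise apart by a narrow margin, at 108.6, 111.8 and 111.8 against 140.2, 116.4 and 114.0 CPM (log2 fold change 0.16, SE 0.12, edgeR adjusted p = 0.715). ZNF274, which binds the 3′ ends of zinc finger genes themselves and brings SETDB1 there, overlapped at all 3 times, with 12.5, 16.5 and 12.7 against 16.2, 19.2 and 16.1 CPM at 72 h.

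ZNF331, an imprinted gene often silenced by methylation in carcinomas, had the clearest single difference at 6 h. It was at 19.4, 19.5 and 22.4 CPM in DMSO and at 30.8, 37.1 and 35.6 CPM in actD, so that every actD library lay well above every DMSO library. The log2 fold change was 0.75 (SE 0.12), a 1.69-fold difference, with an adjusted p of 0.159 in edgeR and 0.000492 in DESeq2. Its libraries overlapped at 72 h, at 15.3, 17.7 and 19.7 against 24.9, 16.4 and 19.2 CPM. They also overlapped at 2 weeks, at 16.9, 15.7 and 20.7 CPM in named dmso and 18.1, 24.5 and 21.2 CPM in named actd.

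ZNF471, also known as a target of promoter methylation in tumors, was higher without overlap at both early times. It was at 2.66, 4.58 and 4.33 CPM in DMSO and 6.94, 5.33 and 6.22 CPM in actD at 6 h (log2 difference 0.68, SE 0.23; adjusted p = 0.556, edgeR). At 72 h it was at 3.66, 4.53 and 5.13 against 8.12, 9.08 and 5.65 CPM (log2 difference 0.78, SE 0.27; adjusted p = 0.322, edgeR). The groups overlapped at 2 weeks, at 6.35, 5.58 and 5.48 against 5.18, 6.35 and 6.12 CPM. ZNF154, another such target, was low throughout and was apart only at 72 h, at 1.09, 1.04 and 1.16 CPM in DMSO and 1.53, 1.79 and 2.2 CPM in actD (log2 fold change 0.74, SE 0.28, edgeR adjusted p = 0.34).

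The remaining members with known roles were mostly variable within groups. ZNF382, reported as a tumor suppressor, had libraries at 3.52, 14 and 3.65 CPM in DMSO and 14.3, 5.98 and 13.6 CPM in actD at 6 h, so single libraries of both groups differed more than the groups. ZNF224, a repressor that also acts with the Wilms tumor protein WT1, was at 5.18, 8.8 and 14.5 CPM in DMSO and 7.57, 17.9 and 18.5 CPM in actD at 72 h, which overlap. ZNF649 and ZNF675, regulators of growth factor and cytokine signaling, overlapped at all 3 times. ZNF675 was at 21, 34.6 and 32.5 CPM in DMSO and 46.4, 33.2 and 43 CPM in actD at 6 h.

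ZNF536, a repressor of neuronal differentiation without a KRAB pattern, was on the lower side at 6 h and 72 h, and at 2 weeks by library name. It was at 13.4, 14.6 and 19.2 CPM in DMSO and 9.54, 10.3 and 11.2 CPM in actD at 6 h (log2 difference -0.60, SE 0.17; adjusted p = 0.457, edgeR). Its 72 h libraries overlapped, at 8.33, 9.55 and 15.9 against 4.38, 4.96 and 12.2 CPM. At 2 weeks it was at 34.2, 31.6 and 41.1 CPM in named dmso and 27.2, 23.5 and 24 CPM in named actd (log2 fold change -0.52, SE 0.13, edgeR adjusted p = 0.41).

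**Figure D4:**
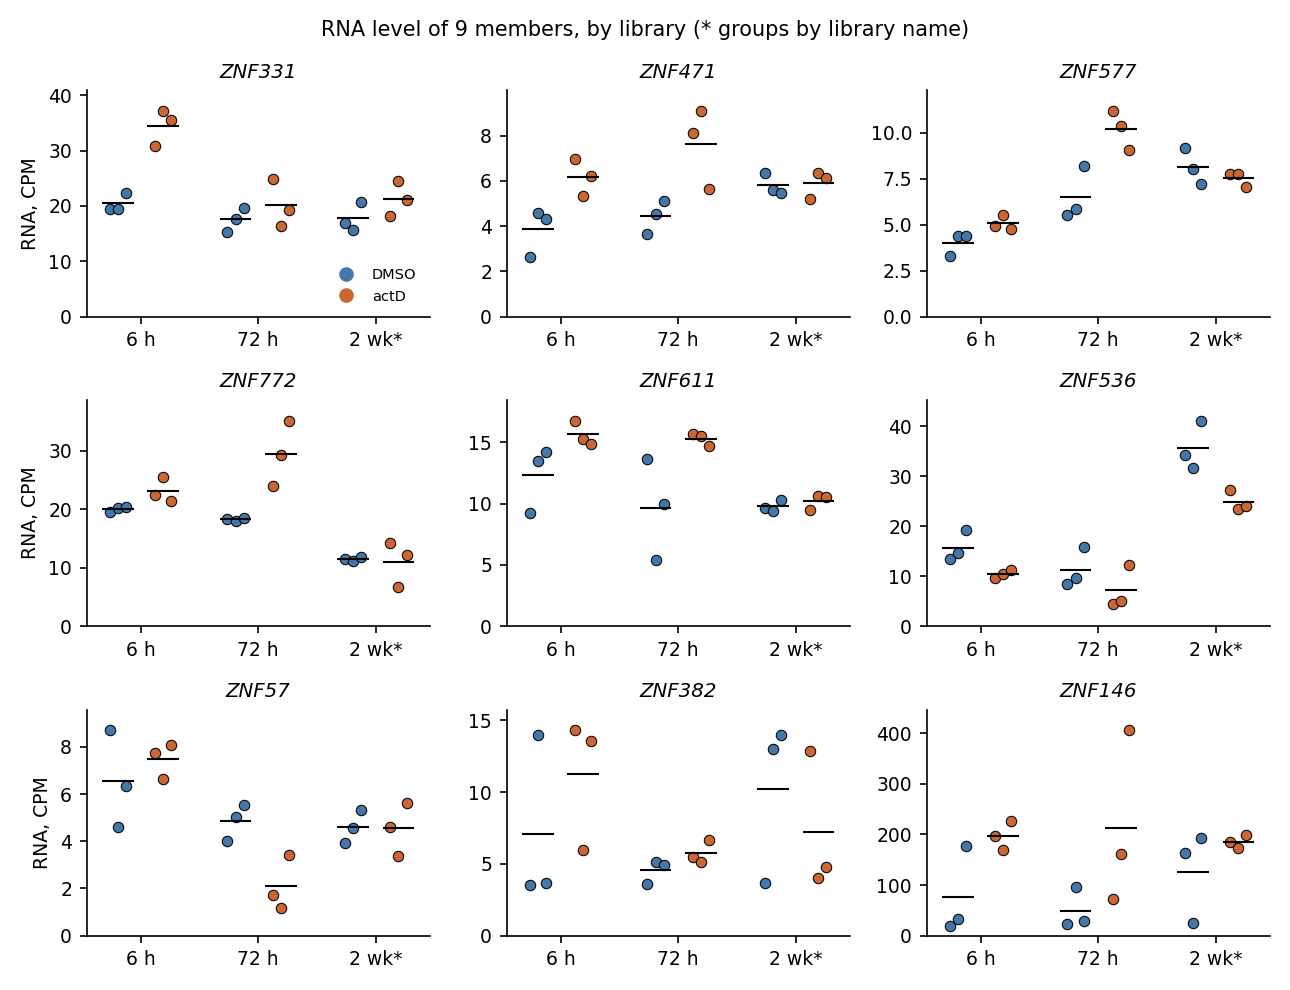
RNA level in CPM (y axis) of 9 members in each library (points) at 6 h, 72 h and 2 weeks (x axis), with group means as lines; the asterisk marks groups by library name. ZNF331 is separated at 6 h, ZNF577 and ZNF772 are farther apart at 72 h than at 6 h, and ZNF57 lies lower at 72 h. ZNF382 and ZNF146 differ severalfold between libraries of 1 group.

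Among members with a mean of at least 100 counts whose groups did not overlap at 72 h, those with the highest changes were ZNF284, ZNF260, ZNF493, ZNF471, ZNF772 and ZNF611, chosen for those values. ZNF772 had the tightest controls, at 18.3, 17.9 and 18.5 CPM in DMSO and 24, 29.3 and 35.1 CPM in actD (log2 fold change 0.69, SE 0.21, edgeR adjusted p = 0.278). It was also apart at 6 h, by less, at 19.4, 20.2 and 20.4 against 22.5, 25.5 and 21.4 CPM. ZNF493 was at 7.05, 14.7 and 11.5 CPM in DMSO and 26.6, 16.4 and 16 CPM in actD at 72 h. ZNF611 was at 13.6, 5.37 and 9.95 against 15.7, 15.5 and 14.7 CPM, where the actD libraries lie close together and the DMSO libraries do not. The changes of ZNF284 and ZNF260 depend in size on low DMSO libraries. ZNF284 was at 0, 4.02 and 9.69 CPM in DMSO and 10.9, 12.4 and 11 CPM in actD, and ZNF260 at 77.7, 6.86 and 69.2 against 86.6, 80.8 and 127 CPM. Without DMSO replicate 2 the log2 fold change of ZNF260 was 0.41, against 0.94 with all libraries. That of ZNF284 ranged from 0.73 to 2.49 when 1 library was left out, against 1.31 with all. ZNF284 shares 42.9% of its 75-base words with other genes, most often with the overlapping gene AC067968.1. The latter was listed at 292, 157 and 0 counts in the same 3 DMSO libraries and at 0 in the actD libraries. Low values of ZNF284 thus coincide with counts on AC067968.1.

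ZNF577 was the member called in the fit over all 18 RNA libraries. It was at 5.53, 5.88 and 8.18 CPM in DMSO and 11.2, 10.4 and 9.06 CPM in actD at 72 h, groups that do not overlap. The log2 fold change was 0.64 (SE 0.24, 1.56-fold) with an edgeR adjusted p of 0.34 in the 6 libraries of that time and of 0.0484 in the fit over all 18. At 6 h it was apart by less, at 3.27, 4.38 and 4.41 against 4.95, 5.51 and 4.75 CPM.

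Only 5 members with a mean of at least 100 counts were lower without overlap at 72 h, namely ZNF57, ZNF544, ZNF581, ZNF507 and ZNF430. ZNF57 was at 4.01, 5.04 and 5.52 CPM in DMSO and 1.71, 1.17 and 3.4 CPM in actD (log2 fold change -1.21, SE 0.42, edgeR adjusted p = 0.317), the lowest value among the named members. ZNF544 was at 20.6, 22 and 22.5 against 8.55, 20 and 11.1 CPM. ZNF507, which has no KRAB pattern, was at 50.4, 64.8 and 71.2 CPM in DMSO and 44.9, 47.4 and 44.2 CPM in actD (log2 fold change -0.45, SE 0.19, edgeR adjusted p = 0.382). ZNF581 and ZNF430 had log2 fold changes of -0.51 and -0.18. At 6 h all 5 overlapped.

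The remaining members called by DESeq2 show 3 kinds of data behind such a call. ZNF566 was at 7.97, 7.72 and 8.1 CPM in DMSO and 12.7, 11 and 12 CPM in actD at 6 h, tight and apart (log2 fold change 0.59, SE 0.13, adjusted p = 0.297 in edgeR and 0.0329 in DESeq2). ZNF419 was at 3.86, 4.59 and 3.44 CPM in named dmso and 7.71, 16.1 and 13.2 CPM in named actd at 2 weeks (log2 fold change 1.64, SE 0.27, adjusted p = 0.221 in edgeR and 3.73e-06 in DESeq2). ZNF497 had 408, 56 and 39 counts in the 6 h DMSO libraries and was listed at 0 in the 3 actD libraries of 6 h and in all 72 h libraries. It shares 16.4% of its 75-base words with other genes, most often with the overlapping gene AC012313.3. ZNF146, a protein made almost only of zinc fingers, was at 22.9, 95.7 and 28.7 CPM in DMSO and 73.3, 161 and 406 CPM in actD at 72 h, which overlap (log2 fold change 2.12, SE 0.75, adjusted p = 0.322 in edgeR and 0.0477 in DESeq2). Its log2 fold change was 1.25 without actD replicate 3 and 3.04 without DMSO replicate 2. At 6 h it was at 19.9, 33 and 178 against 197, 169 and 227 CPM.

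Such jumps between libraries of 1 group were more frequent among the members than elsewhere. Among genes with a mean of at least 100 counts, the highest library of a group was at least 3 times the lowest in 17 of 214 members at 6 h (7.94%), 39 of 210 at 72 h (18.6%) and 22 of 206 at 2 weeks (10.7%). The corresponding shares of all protein-coding genes were 2.66%, 11.3% and 2.92%, and of ZNF genes of other chromosomes 3.32%, 12.2% and 7.62%. The median ratio of highest to lowest was 1.45, 1.69 and 1.38 in members and 1.35, 1.70 and 1.33 in protein-coding genes. Tested members also had fewer counts at 6 h, with a median of 716 against 1178 for other ZNF genes and 1218 for protein-coding genes. The part of count level in these shares was not tested. ZNF146, ZNF551 and ZNF841 were in this class at all 3 times. ZNF551 was at 23.1, 4.12 and 23.4 CPM in DMSO and 3.63, 4.17 and 3.27 CPM in actD at 6 h, and ZNF121 at 28.2, 34.7 and 115 against 131, 127 and 37.5 CPM at 72 h. Without members of this class and below 100 counts, the median log2 fold change was 0.12 at 6 h, with 142 of 197 members above 0, 0.13 at 72 h, with 122 of 171, and 0.00 at 2 weeks, with 95 of 184. Their summed level at 6 h was then 2852, 3190 and 3109 CPM in DMSO and 3459, 3317 and 3324 CPM in actD, which do not overlap, and at 72 h 2812, 2840 and 2656 against 2840, 3088 and 3061 CPM, where the lowest actD library and the highest DMSO library were equal to within 0.1 CPM.

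The corepressor machinery on which KRAB proteins depend was mostly on the lower side, with the 2-week groups taken by library name. By title the 2-week values in this paragraph change sign. Of its 25 tested genes 8 had a log2 fold change above 0 at 6 h, 6 at 72 h and 8 at 2 weeks, with medians of -0.04, -0.34 and -0.28. None was called by edgeR. At an unadjusted p under 0.05, 2 were higher and 7 lower at 6 h, 0 and 8 at 72 h, and 1 and 10 at 2 weeks, against the backgrounds given above. TRIM28 itself had log2 fold changes of -0.38 (SE 0.16), -0.97 (SE 0.38) and -0.55 (SE 0.15) at the 3 times, with overlapping libraries at 72 h. SETDB1 had values of -0.44 (SE 0.13), -0.56 (SE 0.18) and -0.45 (SE 0.14), without overlap at any of them. The edgeR adjusted p of these 6 values lay between 0.293 and 0.597. Genes known for short-lived mRNA had a log2 fold change above 0 in 30 of 38 at 6 h, 25 of 37 at 72 h and 26 of 35 at 2 weeks, with medians of 0.16, 0.18 and 0.14. Of 40 tested zinc finger genes of the SCAN type or with other names, 23, 24 and 17 were above 0, with medians of 0.09, 0.10 and -0.04.

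Footprints on the members were too few for most comparisons. The 239 members listed in the footprint tables held 1640 counts in all 6 libraries of 6 h, 3208 at 72 h and 2228 at 2 weeks, spread over 200, 218 and 207 members. None passed the filter at 6 h, 4 at 72 h and 3 at 2 weeks. At this depth a change in footprints was not detectable for nearly all members. The protein-coding share of footprint counts was 2.12% to 40.4% across libraries, far below that of RNA.

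Of the 4 members tested at 72 h none was called by edgeR (3.79% of genes) or by DESeq2 (4.41%) and 1 had an unadjusted p under 0.05, ZNF90, on the higher side (14.2% of genes higher and 13.1% lower). Groups did not overlap for 1 member higher and 2 lower (19.5% and 16.2% of genes). ZNF90 passed the filter only through the actD libraries, where it is high, so its p-values and its place in these counts rest on a gene selected by that difference and are given as a description. ZNF460 had 18, 13 and 4 footprint counts in DMSO and 17, 13 and 31 in actD, that is 40.7, 43.6 and 49.7 against 25.4, 35.3 and 36.9 CPM (log2 fold change -0.42, SE 0.32, edgeR adjusted p = 0.412). ZNF507 had 43, 40.2 and 37.3 against 19.4, 24.5 and 32.1 CPM (log2 fold change -0.67, SE 0.33, edgeR adjusted p = 0.224). Both were apart on the lower side, from at most 31 counts a library. ZNF814 was at 24.9, 26.8 and 12.4 against 14.9, 10.9 and 26.2 CPM, which overlap. ZNF90 was the exception in direction, with 6, 2 and 0 counts in DMSO and 37, 19 and 30 in actD, or 13.6, 6.71 and 0 against 55.2, 51.7 and 35.7 CPM (log2 fold change 2.30, SE 0.51, edgeR adjusted p = 0.051). Its RNA was listed at 0 counts in all 12 libraries of 6 h and 72 h and at 1 count in a single 2-week library, and it shares 7.96% of its 75-base words, mostly with AC011447.1, a processed pseudogene inside the gene on the same strand with 240 to 635 RNA counts per library at 72 h. Its footprints were 0 to 10 counts per library at 6 h and 0 to 4 at 2 weeks. At 2 weeks, ZNF507, ZNF146 and ZNF460 were tested and overlapped, with log2 fold changes of -1.11, 0.38 and -0.15. Thus 1 of 3 was above 0, against 51.3% of genes, and none was called by edgeR or DESeq2 (0% of genes in both) or had an unadjusted p under 0.05 (4.07% of genes higher and 4.51% lower; groups apart for 8.32% and 6.57%).

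**Figure D5:**
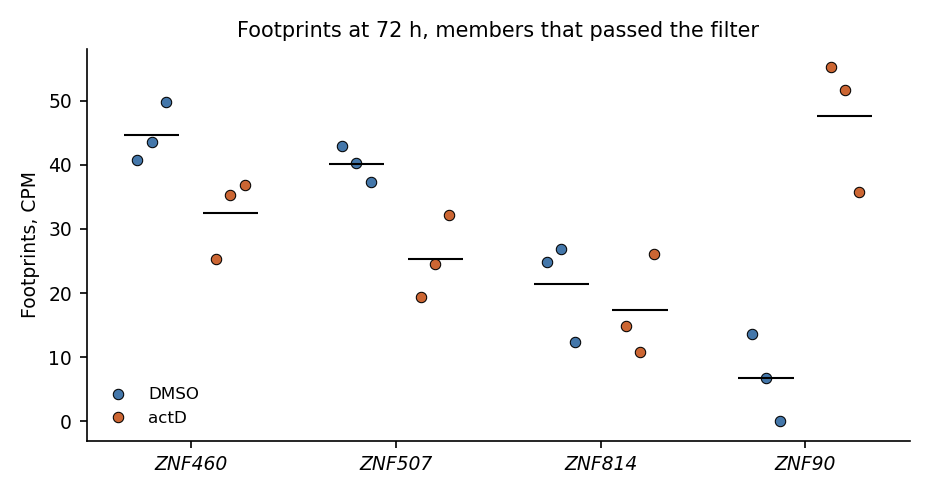
Footprint level in CPM (y axis) at 72 h in each library (points) of the 4 members that passed the filter, with group means as lines. ZNF460 and ZNF507 lie lower in actD without overlap, ZNF814 overlaps, and ZNF90 lies higher, from 0 to 13.6 CPM in DMSO to 35.7 to 55.2 CPM in actD.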

How the data were processed

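Reads were aligned with HISAT2 to hg38 and quantified with StringTie, per the submitters' processing notes, which give no versions or settings. The authors deposited 1 table of estimated counts (expected counts) per assay and time point, 6 in all, with 1 column for each of the 36 libraries. Values were already whole, and no column was left unused (0). RNA libraries came from stranded kits, per the labels' protocols, but use of strand in counting is not given in the sources used here, so reads of overlapping genes may be split. Small values of 1 to 11 fell on 3, 6, 8 or 11 in 42.3% and 42.5% of cases in the 6 h and 2-week RNA tables and in 28.7% at 72 h, so 1 fragment can be worth more than 1 count there and no floor for a count of 0 is given. Identical second entries of the pseudoautosomal region were left out.

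Each table was fitted alone over all genes, on its 6 libraries, with edgeR 4.0.16 (R 4.3.3; filterByExpr, TMM, quasi-likelihood test, two-sided, Benjamini-Hochberg, threshold 0.05), checked on simulated data. The 72 h and 6 h RNA tables were joined for the interaction. CPM values use the TMM factors of their table, so levels are compared within a table only. DESeq2 1.42.0 (after the same filter), library totals, no filter, a mean of at least 1 CPM, a replicate block, 1 fit over 18 libraries and leaving out each library were the alternatives.

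Named members were the 11 with a known role, those called at 72 h (or else in the fit over 18 libraries), the 6 lowest and 6 highest at 72 h with non-overlapping groups and a mean of at least 100 counts, the 4 most abundant per kb and the 4 with the most footprints at 72 h. All other members named were added after their values were seen. The members and gene lists were chosen with earlier results of these data known. The KRAB pattern was adjusted on known family members, without use of the counts.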

Additional observations from a re-analysis of the deposited data

Results flagged for a closer look

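5 pairs of time points were picked out because every library of actD moved 1 way against its controls at one time and the opposite way at the other, with the 2-week groups taken by library name. By title the 2-week values change sign and the pattern with them. For 6 h with 2 weeks, 3 of 224 members were apart in opposite directions and 3 in the same direction, where 0.568% and 3.35% of all genes were. For 72 h with 2 weeks, 2 were opposite and 2 the same, with 0.611% and 3.26% of all genes. The difference was not tested in any of them, because the 2-week labels contradict each other.

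ZNF345 had a log2 fold change of -0.52 at 6 h, from 1.99, 2.34 and 1.95 CPM in DMSO to 1.31, 1.27 and 1.81 CPM in actD, and of 0.28 at 2 weeks, from 3.7, 3.95 and 3.71 CPM in named dmso to 4.61, 4.4 and 4.8 CPM in named actd. ZNF283 had 0.21 at 6 h and -0.14 at 2 weeks. ZNF211 had 0.17 at 6 h, 0.44 at 72 h and -0.21 at 2 weeks, so it enters with both early times. ZNF284 had 1.31 at 72 h, where 1 DMSO library is at 0, and -0.17 at 2 weeks. No edgeR adjusted p among these values was under 0.05.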

How the results depend on the processing

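No count of called members was above 0 in edgeR under library totals, no filter (RNA), a mean of at least 1 CPM or titles at 2 weeks. DESeq2 called 3 members at 6 h, 1 at 72 h and 1 at 2 weeks, and the fit over all 18 RNA libraries 1 at 72 h. Leaving out 1 library gave 0 to 1 called members at 6 h (ZNF551, without DMSO replicate 2), 0 to 1 at 2 weeks (ZNF302, without named actd replicate 1), 0 to 2 in the interaction (ZNF180 and ZNF555 without 72 h DMSO replicate 2, ZNF561 without 72 h actD replicate 3) and 0 to 1 in the 72 h footprints (ZNF90, without actD replicate 3). Without a filter, 1 member, ZNF90, was called in the 72 h footprints (edgeR adjusted p = 0.0272). The median log2 fold change stayed above 0 without any 1 library at 6 h (0.08 to 0.17) and at 72 h (0.07 to 0.18). At 2 weeks it was -0.14 under library totals, where the median of all genes was -0.18, and -0.01 by title. ZNF460 in the 2-week footprints ranged from -0.38 to 0.053 without 1 library, changing sign without DMSO replicate 3. The cause was not tested. Of 670 values of named members under alternatives, 661 kept their direction and side of the threshold. The RNA values were taken only where groups did not overlap or DESeq2 called the member, a choice that favors a kept direction. The side of the threshold was that of no call in every main fit. The count is therefore a description and no measure of robustness.

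With the replicate block 0 members were called at each time. Same-numbered libraries correlated at -0.15 to 0.23 in their deviations in RNA and at -0.74 to 0.42 in footprints. In RNA at 72 h the same-numbered pairs were at 0.085, 0.226 and 0.150 and all other pairs at -0.152 to -0.024. Whether the numbers pair the libraries of that time is not settled. The main fits did not pair libraries. Low footprint depth left 4 members at most to test. An added alternative, chosen after seeing the data, kept members with at least 100 counts and a spread under 3-fold.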

Other observations

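ZNF302 was at 51.9, 46.3 and 45.4 CPM in the named dmso libraries and at 47.2, 14.4 and 13.5 CPM in the named actd libraries of 2 weeks, 2 of which lie far below the other 4. At 6 h and 72 h its libraries overlapped, at 44 to 59.2 CPM in the 6 libraries of 72 h. ZNF468, which shares 53.2% of its 75-base words, most often with the overlapping gene ZNF320, was at 40.9, 11.6 and 5.55 CPM in DMSO and 47, 47.1 and 55.2 CPM in actD at 6 h, while ZNF320 had 728 to 901 counts in DMSO and 605 to 820 in actD there.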
